A study of Mus musculus with 4 samples.

Results

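Epithelial-mesenchymal transition (EMT) was followed through 10 genes, taken by gene symbol from the 56748 genes of the count table. They were the transcription factor genes Snai1, Snai2, Zeb1, Zeb2, Twist1 and Twist2, the cadherin genes Cdh1 and Cdh2, and the mesenchymal marker genes Vim and Fn1. Each symbol matched 1 row of the table, and each row was annotated as protein-coding. Bulk RNA sequencing measured poly(A) RNA from lungs of female BALB/cJ mice that had been injected through the tail vein at 7 weeks of age with 4T1 cells, a mouse triple-negative breast cancer line, carrying firefly luciferase. After 3 weeks of treatment there were 2 libraries of saline-treated mice and 2 of mice treated with cmLumiOpto/PARPi. cmLumiOpto is an AAV vector, in a plasmid named for cfos, that encodes a luciferase and a mitochondrial light-gated channel and is carried on exosomes bearing an antibody to CD276. It was given with the luciferase substrate ViviRen, and the PARP inhibitor olaparib was given at 50 mg/kg. No library with the vector alone or olaparib alone was analysed here, so the parts of the combination cannot be told apart. The sample labels name the control PBS and the material harvested tumour cells, while the study's text names saline and lung tissue with metastasis. Replicates are separate samples by their labels, and the p-values measure only the spread between these samples.

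In EMT, epithelial cells loosen their junctions and take on the shape, motility and matrix of mesenchymal cells. The SNAIL (Snai1, Snai2) and ZEB (Zeb1, Zeb2) zinc-finger factors bind E-box motifs and repress Cdh1, which encodes the epithelial adhesion protein E-cadherin, and the basic helix-loop-helix factors Twist1 and Twist2 act on many of the same targets. Exchange of E-cadherin for N-cadherin, the product of Cdh2, is called the cadherin switch. Vimentin (Vim) is the intermediate filament protein of mesenchymal cells, and fibronectin (Fn1) is a matrix glycoprotein that they secrete. In lung, fibroblasts, endothelial cells and macrophages also use several of these genes, whereas alveolar and airway epithelium and many 4T1 cells express Cdh1.

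Read counts summed to between 15263375 and 16755228 per library, and levels are given as CPM, in which TMM places all libraries on 1 scale. The detection floor of 3 counts was 0.173 to 0.204 CPM, for counting error only. In both groups the 2 libraries differed by more than counting noise. No gene of 15167 passed an adjusted p of 0.05 in edgeR's quasi-likelihood test, and 3221 had an unadjusted p under 0.05. DESeq2 called 981 of the 13402 genes to which it gave an adjusted p. Fold changes moved with gene model length, the length deposited for each gene. Medians ran from 0.31 for the shortest genes to -0.27 for the longest when genes were put in 5 bins by this length. Each fold change was therefore also computed after a correction for length. An exact permutation test of 2 libraries against 2 cannot give a two-sided p under 0.333.

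Of the 10 genes, 9 had enough counts to be tested and Twist2 did not. Both treated libraries lay below both saline libraries for 5 of the 9, Zeb2, Twist1, Cdh2, Vim and Fn1, against 27.8% of all tested genes. None lay above in both, against 27.4% of all tested genes, so that 5 of 9 did not overlap in either direction, against 55.2% of all tested genes. The other 4, Snai1, Snai2, Zeb1 and Cdh1, overlapped between the groups. The share of these genes that did not overlap was thus that of all genes, and the direction was lower in each case. An unadjusted p under 0.05 with lower treated values was found for Cdh2, Fn1 and Zeb2, 3 of 9, against 12.0% of all tested genes. None had an unadjusted p under 0.05 with higher treated values (9.21% of all tested genes, and 21.2% in either direction), and 0 passed the adjusted threshold (0 of all tested genes). The median log2 fold change of the 9 was -0.42, against 0.02 over all tested genes. Because the libraries are of bulk tissue, fewer cells of a type and less RNA per cell cannot be told apart for any of these genes.

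**Figure D1:**
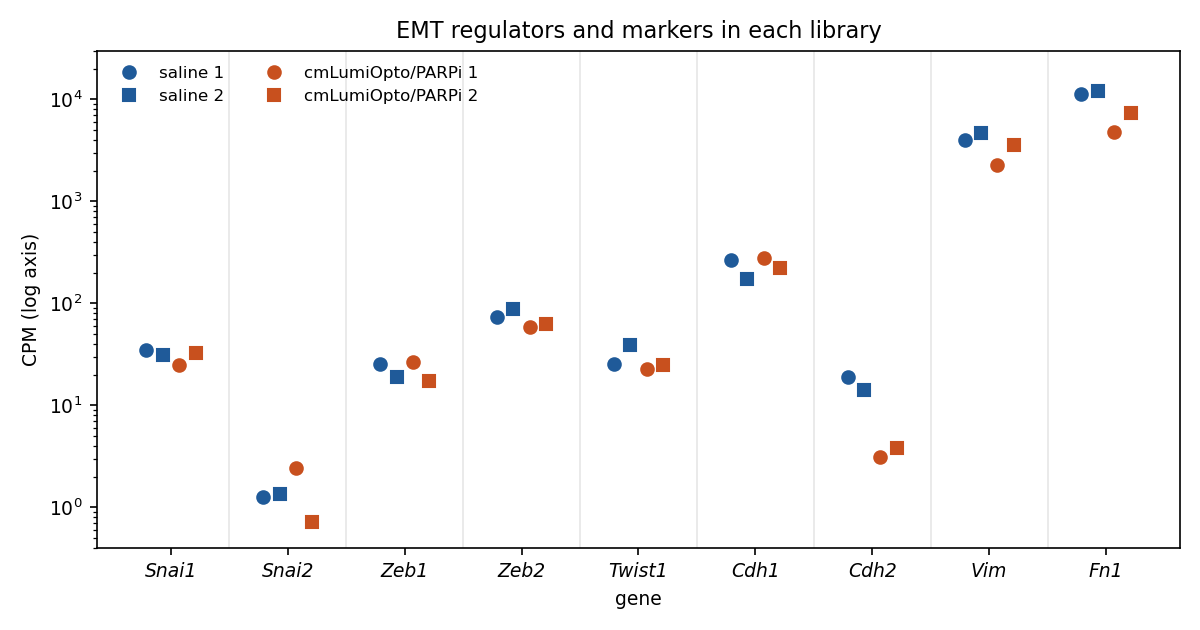
CPM (log axis) of the 9 tested EMT genes in each of the 2 saline and 2 cmLumiOpto/PARPi libraries, 1 point per library. The treated points of Cdh2, at 3.11 and 3.79 CPM, lie well below its saline points at 19.1 and 14.2 CPM, and those of Vim and Fn1 lie below at a far higher level.

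Cdh2 had the largest difference of the 9 tested genes. Cdh2 (ENSMUSG00000024304, chromosome 18, 16721934 to 16942303 on the minus strand, mm39), which encodes N-cadherin, was counted 304 and 209 times after saline and 54 and 63 times after treatment. These counts were 19.1 and 14.2 CPM against 3.11 and 3.79 CPM. The lower saline library was still 3.76-fold above the higher treated library. The saline mean was 16.7 ± 3.41 CPM (SD, n = 2) and the treated mean 3.45 ± 0.482 CPM (SD, n = 2), a 4.83-fold difference between means. The log2 fold change was -2.27 with an SE of 0.29 (unadjusted p = 2.79e-04, adjusted p = 0.138 by edgeR's quasi-likelihood test). Only 26 tested genes, 0.171%, had a lower log2 fold change. After length correction it was -2.12, with an SE of 0.30. The adjusted p of Cdh2 depended on the tool and on the filter on low counts. DESeq2 gave 1.54e-06, edgeR without the filter gave 5.37e-09, and edgeR with the filter and length correction gave 0.260.

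Cdh1, the other side of the cadherin switch, did not separate the groups. Cdh1 (ENSMUSG00000000303, chromosome 8, 107329983 to 107396878 on the plus strand) stood at 267 and 173 CPM after saline and 281 and 223 CPM after treatment. The second treated library thus lay between the saline libraries. Its log2 fold change was 0.19 with an SE of 0.24 (adjusted p = 0.677 by edgeR), and it was -0.10 when the second saline library was left out.

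The ratio of the cadherins within each library was taken on CPM per kilobase of gene model length. On this scale the order of genes depends on the length used, which is not that of a measured transcript. The difference of such a ratio between the groups does not depend on it. Cdh1 exceeded Cdh2 in every library, by 24.7-fold and 21.4-fold after saline and by 159-fold and 104-fold after treatment. The log2 ratio of Cdh2 to Cdh1 was -4.52 ± 0.144 (SD, n = 2) in saline and -7.01 ± 0.440 (SD, n = 2) in treated libraries, a difference of -2.48. The ratio did not overlap between the groups, and the difference stayed between -2.79 and -2.17 when any 1 library was left out. It combines the log2 fold changes of -2.27 for Cdh2 and 0.19 for Cdh1.

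**Figure D2:**
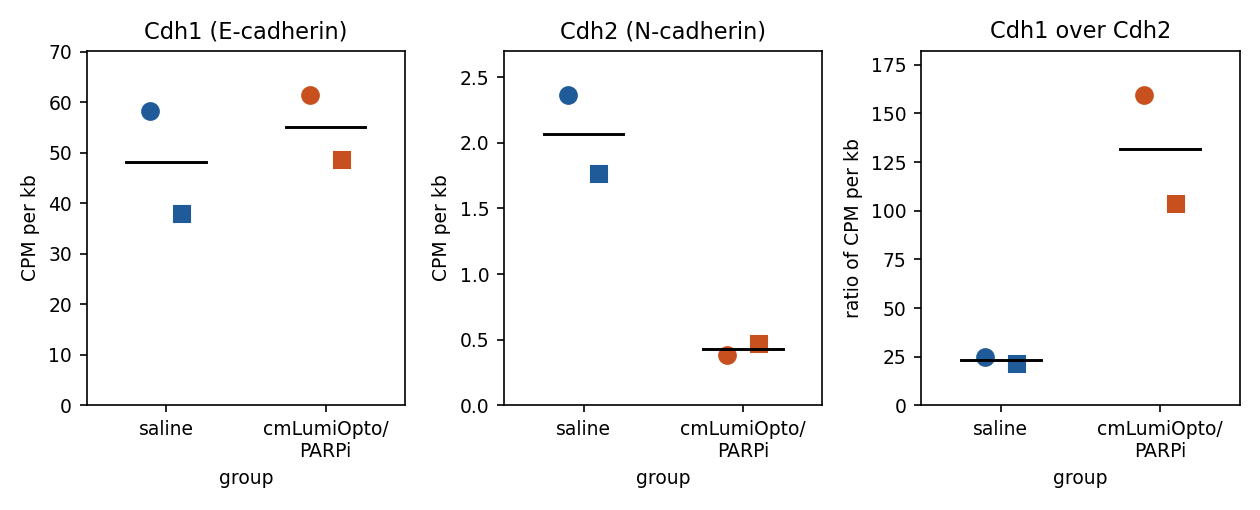
Cdh1 and Cdh2 in CPM per kilobase of gene model length, and the ratio of Cdh1 to Cdh2, in the saline and cmLumiOpto/PARPi groups, with 1 point per library (circle for replicate 1, square for replicate 2) and a line at each group mean. The groups overlap for Cdh1, between 37.9 and 61.4, and are apart for Cdh2, at 2.36 and 1.77 in saline and 0.385 and 0.470 after treatment.

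Fn1 was among the most abundant RNAs of the saline libraries and was lower in both treated libraries. Fn1 (ENSMUSG00000026193, chromosome 1, 71624679 to 71692359 on the minus strand), the fibronectin gene, took 1.13% and 1.17% of all counts after saline against 0.499% and 0.738% after treatment. In CPM it stood at 11356 and 12149 against 4814 and 7329. The lower saline library exceeded the higher treated library by 1.55-fold, and the group means, 11753 ± 561 and 6071 ± 1778 CPM (SD, n = 2 each), differed by 1.94-fold. The log2 fold change was -0.95 with an SE of 0.27 (unadjusted p = 0.0134, adjusted p = 0.159 by edgeR's quasi-likelihood test). On CPM per kilobase Fn1 ranked 30 and 23 among all genes of the table after saline and 125 and 76 after treatment. After length correction the log2 fold change of Fn1 was -0.69 (unadjusted p = 0.0720 from the quasi-likelihood fit), while DESeq2 gave it an adjusted p of 0.00371 and edgeR without the filter on low counts 5.17e-04.

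Vim (ENSMUSG00000026728, chromosome 2, 13578738 to 13587637 on the plus strand), the vimentin gene, stood at 4013 and 4630 CPM in saline and 2257 and 3576 CPM in treated libraries. Both treated values were lower, but the treated libraries differed from each other by 1.58-fold. The log2 fold change of Vim was -0.57 with an SE of 0.27 (unadjusted p = 0.0824, adjusted p = 0.289 by edgeR). It was -0.27 without the first treated library and -0.96 without the second. Per kilobase of gene model length, Fn1 exceeded Vim in both saline libraries, at 1.15 and 1.07 times its level. Fn1 lay under Vim in both treated libraries, at 0.866 and 0.832 times. Which of these genes stood above the other depends on the length used, whereas the lower ratio in both treated libraries does not. The ratio of Vim to Cdh1 overlapped between groups, at 14.5 and 25.8 in saline and 7.75 and 15.5 in treated libraries. The ratio of Fn1 to Cdh1 was 16.7 and 27.5 in saline and 6.70 and 12.9 in treated libraries and did not overlap.

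**Figure D3:**
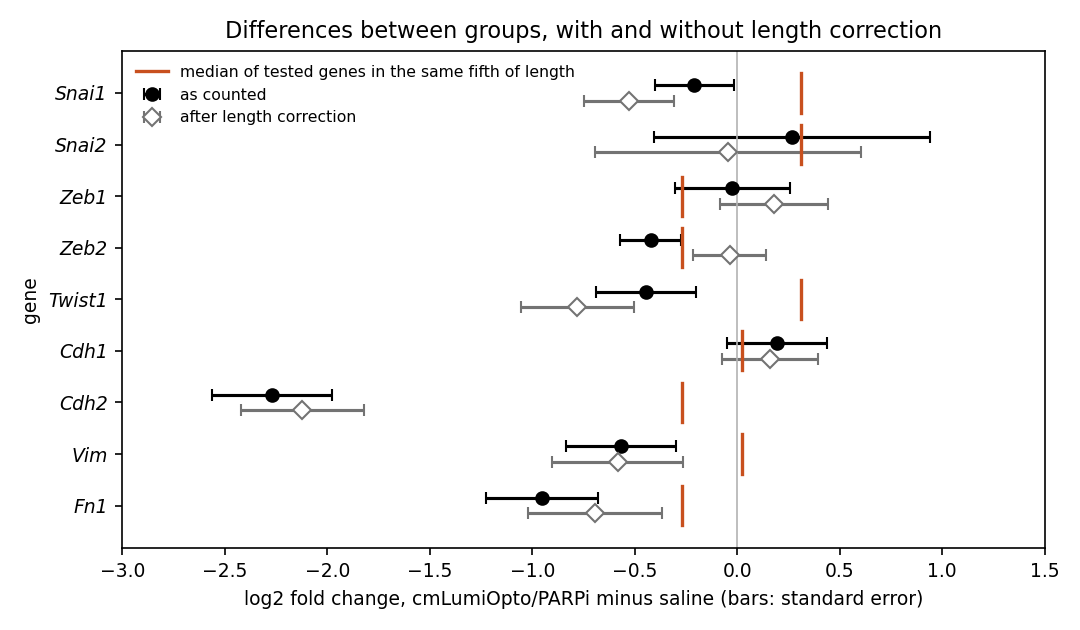
Log2 fold changes (cmLumiOpto/PARPi minus saline) of the 9 tested EMT genes with standard errors, as counted (filled) and after length correction (open). Vertical marks give the median of all tested genes in the same length bin. Cdh2 lies at -2.27 as counted and -2.12 after correction, while Zeb2 moves from -0.42 to -0.04.

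The SNAIL genes overlapped between the groups. Snai1 (ENSMUSG00000042821, chromosome 2, 167380115 to 167384734 on the plus strand), encoding SNAIL, stood at 34.9 and 31.3 CPM in saline and 24.9 and 32.4 CPM in treated libraries, a log2 fold change of -0.21 with an SE of 0.19 (adjusted p = 0.565 by edgeR). Snai1 has a short gene model of 1621 bases. Its length-corrected log2 fold change was -0.53 (unadjusted p = 0.0456, adjusted p = 0.338 in the quasi-likelihood fit), with the treated values then below both saline values. Snai2 (ENSMUSG00000022676, chromosome 16, 14523716 to 14527249 on the plus strand), encoding SLUG, was scarce, with 20 and 20 counts in saline and 42 and 12 in treated libraries. The treated libraries of Snai2 thus lay on either side of the saline ones, and no direction can be given, since its log2 fold change of 0.27 (SE 0.67) was -0.05 after length correction and -0.85 without the first treated library. Per kilobase Snai1 exceeded Snai2 in every library, by 12.8-fold to 55.9-fold.

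The promoters of members are shown because the E-box is the sequence that the SNAIL, ZEB and TWIST factors bind. RefSeq promoters (GRCm38.p6, 250 bases before the start site) were read for Snai1, Twist1, Twist2, Vim and Zeb2, the last with 4 start sites, 8 promoters in all. The Zeb2 windows that start at 45113254 and 45113280 overlap in most of their bases. Promoters of Cdh1, Fn1 and Snai2 were not available, and those of Zeb1 and Cdh2 are not covered here. Only the E-box below was searched, so other E-box sequences were not tested. The E-box CACCTG, searched on both strands and therefore also as CAGGTG, was found in 1 of the 8, that of Snai1, and in 17.2% of all 32851 promoters of the table. Its first base lies 126 bases before the start of Snai1, and capitals mark it. The Twist1 and Vim promoters, from members whose treated values were lower in both libraries, hold no match in this window. The sequences lie on the plus strand at chr2:167537945-167538194 (Snai1), chr12:33957421-33957670 (Twist1) and chr2:13574061-13574310 (Vim).
Snai1: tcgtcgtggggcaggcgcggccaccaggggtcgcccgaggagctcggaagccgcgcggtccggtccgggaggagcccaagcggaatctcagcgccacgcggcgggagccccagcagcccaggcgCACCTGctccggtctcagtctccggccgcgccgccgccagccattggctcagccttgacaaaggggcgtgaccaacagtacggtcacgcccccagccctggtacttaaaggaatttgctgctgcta
Twist1: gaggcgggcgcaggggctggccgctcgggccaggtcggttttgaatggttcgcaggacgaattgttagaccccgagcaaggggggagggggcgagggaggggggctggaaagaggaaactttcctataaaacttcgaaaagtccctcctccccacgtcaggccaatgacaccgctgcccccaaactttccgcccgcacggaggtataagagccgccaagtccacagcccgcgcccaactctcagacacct
Vim: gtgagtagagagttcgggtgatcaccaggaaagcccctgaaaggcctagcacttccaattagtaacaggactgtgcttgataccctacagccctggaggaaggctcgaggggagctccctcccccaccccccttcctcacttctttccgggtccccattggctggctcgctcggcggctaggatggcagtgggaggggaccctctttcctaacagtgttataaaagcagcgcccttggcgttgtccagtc

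The ZEB genes differed in pattern. Zeb2 (ENSMUSG00000026872, chromosome 2, 44873644 to 45007407 on the minus strand) stood at 73.9 and 88.9 CPM in saline and 58.6 and 62.8 CPM in treated libraries, lower in both treated libraries. Its log2 fold change was -0.42 with an SE of 0.15 (unadjusted p = 0.0319, adjusted p = 0.202 by edgeR). Zeb2 has a gene model length of 20203 bases, in the longest of the 5 length bins. Its length-corrected log2 fold change was -0.04 (adjusted p = 0.942 in the quasi-likelihood fit). The antisense gene Zeb2os, with 14 to 46 counts per library against 1018 to 1305 for Zeb2, overlaps it, and because the strand setting of the counting is not given in the sources used here, reads of the pair cannot be told apart. Zeb1 (ENSMUSG00000024238, chromosome 18, 5591860 to 5775467 on the plus strand) stood at 25.6 and 18.8 CPM in saline and 26.5 and 17.3 CPM in treated libraries, and the spread within each group exceeded the difference between them. The log2 fold change of Zeb1 was -0.02 (SE 0.28) as counted and 0.18 after length correction. Per kilobase Zeb2 exceeded Zeb1 in every library, by 1.12-fold to 2.40-fold.

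Twist1 and Twist2 encode the TWIST factors, which pair with E proteins to bind DNA. Twist1 (ENSMUSG00000035799, chromosome 12, 34007670 to 34009828 on the plus strand) stood at 25.4 and 39.2 CPM in saline and 22.8 and 24.7 CPM in treated libraries. Both treated values were lower, but the lower saline library exceeded the higher treated one by only 1.03-fold. The log2 fold change of Twist1 was -0.44 with an SE of 0.24 (adjusted p = 0.341 by edgeR), and -0.78 after length correction (unadjusted p = 0.0257, adjusted p = 0.305 in the quasi-likelihood fit). It was -0.11 without the second saline library and -0.74 without the first. Twist2 (ENSMUSG00000007805, chromosome 1, 91729183 to 91775750 on the plus strand) had 2 and 6 counts in saline and 0 and 5 in treated libraries, so no difference was detectable at this depth. The antisense gene Gm29100, with 8 to 18 counts per library, overlaps Twist2, so even these few reads cannot be placed with certainty. In CPM per kilobase the order of the transcription factor genes in saline was Snai1 and Twist1 at 15.6 to 24.1, Zeb2 at 3.66 and 4.40, Zeb1 at 2.50 and 1.83 and Snai2 at 0.621 and 0.674. Snai1 and Twist1 overlapped each other in this order. On the same scale Fn1 (972 and 1040) and Vim (846 and 976) overlapped at the top in saline, above Cdh1 (58.4 and 37.9), while Cdh2 (2.36 and 1.77) stood with Zeb1, which it overlapped.

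Other EMT transcription factors were read from a list of 12, of which 10 were tested. Of these, 4 were lower in both treated libraries and 1 was higher, against 27.8% and 27.4% of all tested genes. The median log2 fold change was -0.36, and -0.21 after length correction. Tcf4, an E protein gene, stood at 280 and 292 CPM in saline and 176 and 196 CPM in treated libraries (log2 fold change -0.62). Its gene model is long, and the length-corrected value was -0.18. Sox4, an SRY-box factor gene, stood at 392 and 466 against 179 and 278 CPM (log2 fold change -0.91, and -0.93 after length correction). Sox9 stood at 64.2 and 73.6 against 38.6 and 48.3 CPM, and Foxq1 at 3.32 and 2.45 against 4.61 and 3.55 CPM. An unadjusted p under 0.05 was found for 3 of the 10, all lower, against 12.0% of all tested genes in that direction. It was found for 2 after length correction, and none passed the adjusted threshold. Among the epithelial-state regulators, 10 of 12 tested, 2 were lower and 2 higher in both treated libraries (27.8% and 27.4% of all tested genes). Their median was 0.09, with unadjusted p under 0.05 for 2 lower and 1 higher (12.0% and 9.21% of all tested genes). Grhl2, a grainyhead factor gene of epithelia, stood at 39.4 and 46.5 against 27.7 and 30.6 CPM, and Klf4 at 29.6 and 51.1 against 23.1 and 19.3 CPM. Elf5, an epithelial ETS factor gene, was scarce but higher in both treated libraries, at 1.63 and 0.681 against 5.47 and 3.31 CPM. Grhl1 stood at 0.815 and 0.136 against 3.11 and 0.903 CPM, with its second saline value under the detection floor.

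Of 11 corepressor genes of SNAIL and ZEB, all tested, 8 were lower in both treated libraries by small amounts (median of the list -0.21) and 2 were higher. Of all tested genes, 27.8% were lower and 27.4% higher in both. An unadjusted p under 0.05 was found for Suz12 alone (lower, 12.0% of all tested genes), and for none after length correction. Suz12, of a Polycomb repressive complex, had a log2 fold change of -0.38, Sin3a -0.34 and Rcor1 -0.37, while the deacetylase genes Hdac1 and Hdac2 had 0.23 and 0.10. In the list of TWIST partners and ID inhibitors (7 of 7 tested, median -0.14), the 3 E protein genes were lower in both treated libraries (27.8% of all tested genes). They had unadjusted p under 0.05 (12.0% of all tested genes), with log2 fold changes of -0.62 for Tcf4, -0.68 for Tcf12 and -0.51 for Tcf3. From the same list Id3 (50.3 and 30.5 against 111 and 70.5 CPM), Id1 (33.2 and 28.6 against 61.5 and 41.5 CPM) and Id4 (1.76 and 1.50 against 3.63 and 2.17 CPM) were higher in both (27.4% of all tested genes). Of these, 2 had an unadjusted p under 0.05 (9.21% of all tested genes). Id2 overlapped, at 64.0 and 82.5 against 65.9 and 67.1 CPM (log2 fold change -0.14, and -0.39 after length correction). ID proteins bind E proteins and keep them from DNA. The E protein and ID genes differ in gene model length. After length correction the log2 fold changes were -0.18 for Tcf4, -0.36 for Tcf12, -0.59 for Tcf3, 0.86 for Id3 and 0.38 for Id1. The unadjusted p stayed under 0.05 for Tcf3 and Id3 but not for Tcf4, Tcf12 or Id1.

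Of the catenins and other proteins that tie cadherins to actin, 6 of 8 genes were tested. In both treated libraries 5 were lower and none higher, against 27.8% and 27.4% of all tested genes. An unadjusted p under 0.05 was found for 3, all lower (12.0% of all tested genes), and the median was -0.41. After length correction the median was -0.30 and 1, Vcl, had an unadjusted p under 0.05. Vcl, encoding vinculin, stood at 121 and 137 CPM in saline and 53.8 and 69.8 CPM in treated libraries (log2 fold change -1.07). Ctnna1, encoding alpha-catenin, stood at 489 and 560 against 360 and 382 CPM, and Afdn, encoding afadin, at 146 and 156 against 104 and 123 CPM (log2 fold change -0.41, and -0.19 after length correction). The epithelial junction list, with 26 of 27 genes tested, was mixed, with 7 lower and 9 higher in both treated libraries (27.8% and 27.4% of all tested genes). Its median was 0.06, with an unadjusted p under 0.05 for 5 lower and 5 higher genes (12.0% and 9.21% of all tested genes). Its desmosome and tight junction scaffold genes Dsp (87.5 and 107 against 57.2 and 56.4 CPM) and Patj (64.5 and 69.4 against 40.9 and 41.6 CPM) were lower. The claudin genes Cldn7 (3.45 and 2.66 against 13.9 and 9.27 CPM), Cldn3 (12.1 and 6.81 against 35.2 and 22.0 CPM) and Cldn18 (58.2 and 19.1 against 189 and 91.2 CPM) were higher, Cldn18 being also on the list of alveolar type 1 markers. Cldn4 (155 and 115 against 140 and 99.2 CPM) and Cldn1 (2.07 and 1.16 against 3.11 and 1.68 CPM) overlapped between the groups.

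The mesenchymal list stood beside Vim and Fn1. Of 25 genes, 24 were tested. Of these, 16 were lower in both treated libraries and 1 was higher, against 27.8% and 27.4% of all tested genes. An unadjusted p under 0.05 with lower treated values was found for 13, against 12.0% of all tested genes. Its median log2 fold change was -0.67, and -0.72 after length correction. Col1a1, a chain of type I collagen, stood at 2064 and 1377 CPM in saline and 455 and 572 CPM in treated libraries (log2 fold change -1.74, unadjusted p = 5.71e-04 by edgeR). Col5a2, a chain of type V collagen, stood at 266 and 237 against 118 and 110 CPM. Itga5, the alpha subunit of the main fibronectin receptor, stood at 181 and 191 against 99.6 and 112 CPM. Thy1 alone was higher in both, at 35.4 and 35.8 against 44.0 and 38.3 CPM (log2 fold change 0.21, and 0.02 after length correction).

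**Figure D4:**
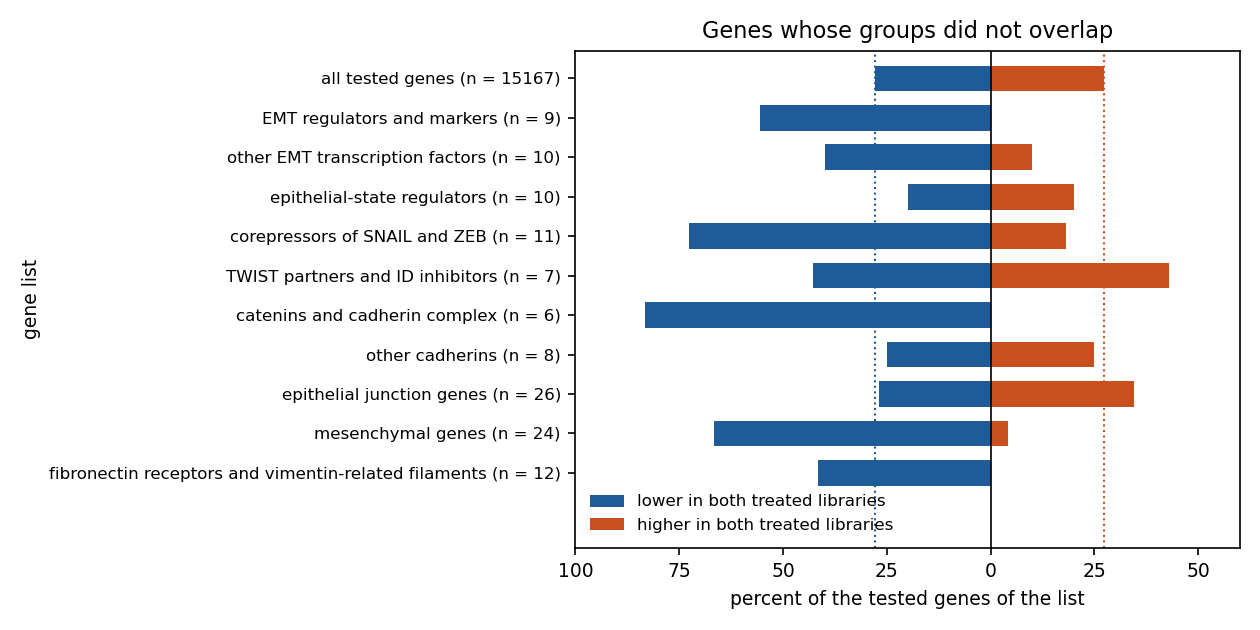
Percent of the tested genes of each list that were lower (left) or higher (right) in both cmLumiOpto/PARPi libraries than in both saline libraries. Dotted lines mark all 15167 tested genes, at 27.8% lower and 27.4% higher. The mesenchymal, catenin and corepressor lists extend farthest to the left. The EMT regulators and markers, other EMT transcription factors, TWIST partners and fibronectin receptor list also pass the left line, while epithelial junction genes lie near both lines.

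The cell types of the lung were read from markers in the same libraries. For comparison with the counts below, 27.4% of all tested genes were higher and 27.8% lower in both treated libraries. Summed alveolar type 2 markers were 3504 and 1686 CPM in saline and 12013 and 5480 CPM in treated libraries, with 8 of 10 genes higher and 2 lower in both treated libraries. Alveolar type 1 markers summed to 485 and 256 against 1192 and 625 CPM, with 6 of 9 higher in both, and airway epithelial markers to 1163 and 88.7 against 5754 and 3220 CPM, with 10 of 10 higher in both. Lyz2 (1693 and 1141 against 3619 and 2441 CPM) was a large part of the alveolar type 2 sums. Scgb1a1 (1088 and 74.7 against 5305 and 2794 CPM) was the largest part of the airway sums. The alveolar and airway sums were higher in the libraries where Cdh2, Vim and Fn1 were lower, and their part in those results was not tested. Summed fibroblast markers were 930 and 1066 CPM in saline and 837 and 734 CPM in treated libraries, lower in both. The largest part of this sum in every library was Npnt, at 453 and 665 against 350 and 412 CPM. Without Npnt the sum overlapped between the groups. Only 5 of 10 genes were lower and 2 were higher in both, and the median log2 fold change was 0.21. Pdgfra, a fibroblast receptor gene, stood at 212 and 243 against 132 and 144 CPM, whereas Dpt (13.8 and 8.45 against 51.9 and 26.9 CPM) and Tcf21 (log2 fold change 2.61) were higher in both. The part of fibroblast markers in the values of Cdh2, Vim, Fn1 and the mesenchymal list was not tested. Mammary carcinoma epithelial markers summed to 2806 and 3300 against 2444 and 3678 CPM and overlapped. Whether their RNA came from tumour cells or from lung epithelium was not tested, so the overlap gives no measure of tumour cell content. The keratin genes Krt8 (1144 and 1560 against 998 and 1640 CPM) and Krt18 (909 and 1016 against 740 and 1261 CPM) led that list. The sums of smooth muscle and pericyte (157 and 157 against 165 and 140 CPM), cardiac muscle (104 and 93.9 against 66.3 and 158), mesothelium (150 and 248 against 278 and 224), endothelium (596 and 483 against 909 and 511), macrophage (1619 and 1427 against 1614 and 1254), neutrophil (1317 and 604 against 811 and 1595) and T cell (61.9 and 24.4 against 125 and 36.5) markers overlapped between the groups. No marker of these lists was at 0 in all libraries, but 6 of the 10 cardiac markers and the basal keratin genes Krt5 and Krt6a had too few counts to be tested.

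**Figure D5:**
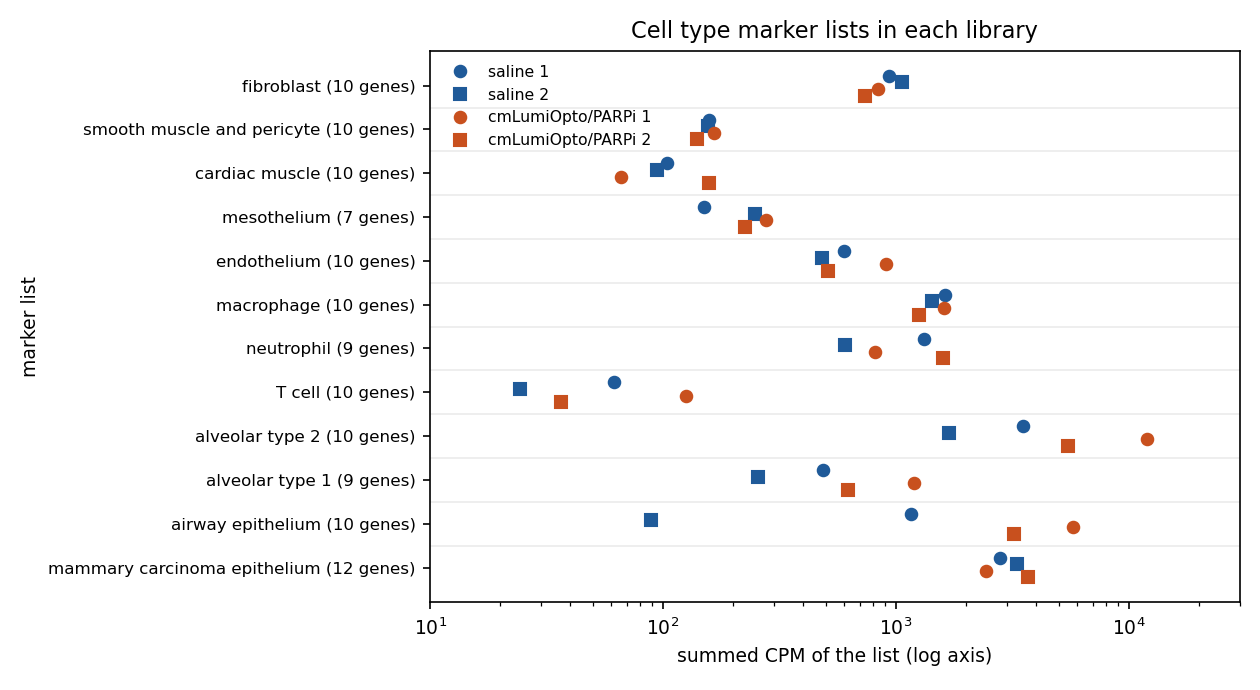
Summed CPM (log axis) of marker genes of each cell type, 1 point per library. Alveolar type 2, alveolar type 1 and airway epithelial sums are higher in both cmLumiOpto/PARPi libraries. The fibroblast sum is lower in both only with Npnt, its largest part, and the other sums overlap between groups.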

How the data were processed

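Poly(A) RNA was sequenced from 4 libraries. The authors mapped reads with HISAT2 and deposited read counts per gene, along with gene positions, lengths and types. The methods name GRCm38, the submitters' processing notes name mm39, and 2.76% of 52073 matched genes had the GRCm38 position, so table positions are given as mm39. Promoters are RefSeq sequences of GRCm38.p6. The counting tool, annotation and strand setting are not given in the sources used here.

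Counts were tested with edgeR 4.0.16 in R 4.3.3 (TMM factors, filterByExpr at min.count 10, glmQLFit then glmQLFTest, Benjamini-Hochberg adjustment over 15167 genes, threshold 0.05). log2 CPM used a prior count of 2. Length correction used a loess fit (span 0.5), in each library, of a gene's deviation from its mean log2 CPM on log2 gene model length, entered as an offset. DESeq2 1.42.0 was an alternative. On simulated counts in which 200 of 15167 genes differed by a log2 value of 2, 71% were recovered and 5.96% of calls were false. The simulated counts were drawn independently and without the length trend of the real libraries. The 71% is therefore not the power of the reported fit. The genes and lists (members; other EMT factors; epithelial-state regulators; corepressors; TWIST partners; catenins; other cadherins; junction, mesenchymal, fibronectin receptor and cell type genes) were chosen with earlier results of these data known. All members were named, and from each pathway list up to 3 genes per direction with the smallest p among those whose groups did not overlap. Genes named outside this rule (Id2, Cldn1, Cldn4 and single cell type markers) were chosen after their values were seen, and 1 gene that the rule names is not reported here.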

Additional observations from a re-analysis of the deposited data

How the results depend on the processing

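The count of genes past the adjusted threshold, 0 in the fit reported, was 0 with DESeq2's size factors in edgeR, 0 with the other glmQLFit option, 0 with length correction, 2000 without the filter on low counts, 981 with DESeq2 and 0 to 31 when 1 library was left out. Of the EMT genes, 2 of 10 passed without the filter and 2 of the 8 given an adjusted p with DESeq2 (Cdh2 and Fn1 each time). The count not overlapping was 5, and 6 to 9 with 1 library left out, reaching 9 without the second treated library, where a single treated value need only lie outside the saline pair. It was also 5 after length correction, with Snai1 in place of Zeb2. Direction turned for Snai2 (-0.046 with length correction, -0.85 without the first treated library, in a range of -0.85 to 0.86 over libraries left out), Zeb1 (0.18 with length correction, 0.20 without the first saline library and 0.23 without the second treated library, in a range of -0.37 to 0.23) and Cdh1 (-0.10 without the second saline library, in a range of -0.10 to 0.53). The causes were not tested. The median of the 9 tested genes was -0.53 after length correction, an alternative applied to list medians after seeing the data.

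Replicate numbers are shared across groups but mark separate samples by their labels, and no label pairs them. Deviations from the group means of same-numbered libraries had a Spearman's rho of 0.298 over 15167 genes. With 2 libraries per group, exchanging the numbers within either group would reverse the sign of this rho. It therefore cannot show that libraries are paired, and the block fit rests on a pairing that no label states. When the replicate number entered the fit as a replicate block, 1822 of 15167 genes passed. Of the 9 tested EMT genes 2 passed, Cdh2 (adjusted p = 0.00926 by edgeR) and Fn1 (adjusted p = 0.0346 by edgeR). With block and length correction together 1234 of 15167 genes passed, and 1 of the 9 tested EMT genes, Cdh2 (adjusted p = 0.00864 by edgeR). The log2 fold changes of Snai2 and Zeb1 were then -0.18 and 0.17.

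Low counts limited the precision of Snai2 and left Twist2 untested.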

Other observations

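Fibronectin receptor and vimentin-related filament genes had 12 of 14 members tested, of which 5 were lower and 0 higher in both treated libraries (median log2 fold change -0.21), against 27.8% and 27.4% of all tested genes. Plec, encoding the filament linker plectin, stood at 606 and 814 CPM in saline and 377 and 381 CPM in treated libraries, with a log2 fold change of -0.91 that was -0.55 after length correction. Itgav, encoding an integrin alpha subunit that binds fibronectin, stood at 212 and 233 against 132 and 157 CPM, and Itga5 had a log2 fold change of -0.82.

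Among cadherins other than Cdh1 and Cdh2, 8 of 11 were tested. In both treated libraries 2 were lower and 2 higher, against 27.8% and 27.4% of all tested genes, and the median log2 fold change was -0.21. Cdh6, encoding a kidney-type cadherin, stood at 3.95 and 2.32 CPM in saline and 0.403 and 1.38 CPM in treated libraries. Cdh3, encoding P-cadherin, stood at 3.14 and 3.48 against 3.05 and 1.14 CPM, Cdh15 at 1.63 and 1.43 against 4.61 and 2.05 CPM, and Cdh16 at 0.941 and 0.136 against 3.34 and 1.20 CPM. The second saline value of Cdh16 lay under the detection floor.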
